A study of Macaca fascicularis with 80 samples.

Results

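The genes described here are the 150 whose mean level in blood was higher 24 h after each of 3 escalating doses of IL-15/IL-15Ra in cynomolgus macaques and that lay near or below the undosed level on day 21. They were chosen from 38550 genes in the main count table. Each count was divided by the library total and scaled to 1 M counts (CPM; M stands for mega), and the 9939 genes with a mean of at least 5 CPM were kept. The level of a gene was log2(CPM + 1) minus the median of the kept genes in the same library, averaged over the 8 animals of a day. A gene met the rule when day 1 exceeded day 0, day 4 exceeded day 3 and day 8 exceeded day 7, each by at least 0.2, and day 21 exceeded day 0 by no more than 0.15. Of 422 genes past the 3 differences, 93 were removed by the day 21 limit. The remaining 329 genes were 3.31% of those kept, and the 150 with the highest mean of the 3 differences were taken as members.

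Blood came from 8 Macaca fascicularis, 4 females and 4 males, each bled on days 0, 1, 3, 4, 7, 8, 10, 14, 17 and 21. Day 0 is labelled Control, with a dose of 0 µg/kg. Days 1 and 3 carry 5 µg/kg in the labels, days 4 and 7 carry 10 µg/kg, and days 8, 10, 14, 17 and 21 carry 15 µg/kg, with doses on days 0, 3 and 7. Days 3 and 7 were read as samples taken before that day's dose because they carry the dose before it, although the labels do not give the hour. Ages of the animals are not given, every animal was dosed, and dose, order and elapsed time rise together.

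Interleukin 15 is a cytokine that acts on natural killer cells and CD8 T cells, which bear the beta and the common gamma receptor chains. The alpha chain of the receptor binds the cytokine with high affinity and presents it to those cells, so a complex of the cytokine with its alpha chain acts as a stronger agonist than the free cytokine. Signals pass through JAK1 and JAK3 to STAT5 and lead to survival, division and activation of the cells. In blood, lymphocytes may also leave for the tissues or return within days of such a stimulus. In bulk blood RNA, fewer cells of a type and less RNA per cell cannot be told apart.

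The files do not pair identifiers with gene names, and 0 identifiers of either deposited table were found in the gene table used for names. The products of the members, and the cell types of the blood samples, therefore could not be checked against markers. Only 4 member identifiers are printed, and the others are described by rank, level and course. Libraries held 17.1 to 80.2 M counts (median 24.3 M), and 8 exceeded 40 M: 4 were drawn on day 10, 3 on day 8 and 1 on day 7. Column names show a different run tag for 8 of the 80 libraries (5 from day 14, 3 from day 10), and a different library tag for 1 from day 7. Of the 150 members, 149 had a count in each of the 80 libraries.

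The members spanned a wide range of levels. Their mean CPM over 80 libraries ran from 5.18 to 1305 with a median of 53, against a median of 35.9 CPM over the kept genes. A mean of at least 100 CPM was reached by 48 members (32%) and by 21.9% of the kept genes. Together the members took 1.48 ± 0.37% of all counts on day 0 (SD, n = 8). On day 1 the share was 2.06 ± 0.52%, and by day 3 it was 2.01 ± 0.33%. Day 4 had 2.88 ± 1.32%, day 7 had 1.70 ± 0.82% and day 8, the highest, had 3.20 ± 1.41%. Day 10 had 2.28 ± 0.61% and day 14 had 2.76 ± 1.73%. The last samples were the lowest, with 1.16 ± 0.20% for day 17 and 1.09 ± 0.18% for day 21. The SD between animals was largest on day 14, where the shares ran from 1.02% to 5.20%.

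**Figure D1:**
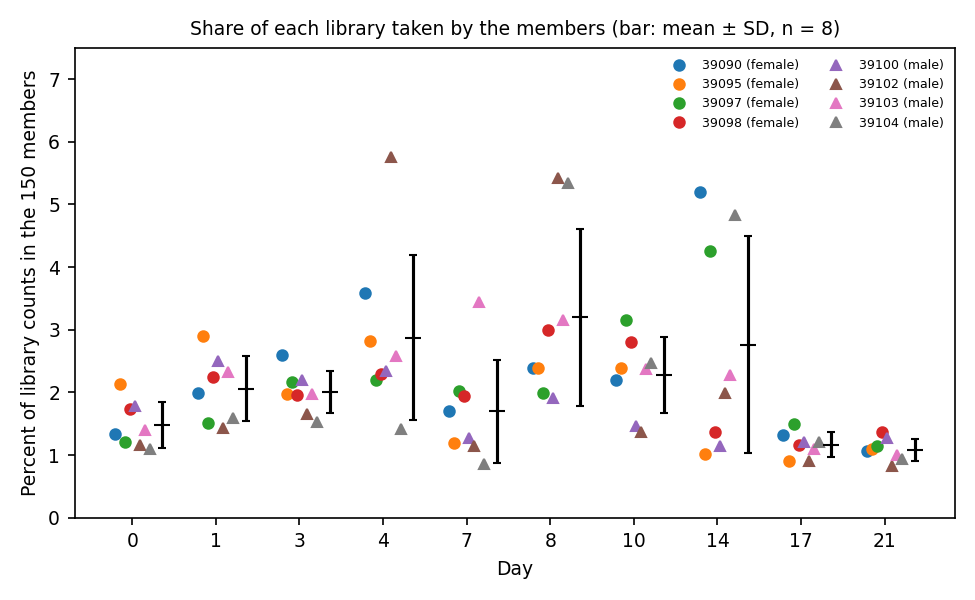
Percent of each library's counts that fell on the 150 members (vertical axis) by day of sampling, with 1 point per animal (circles, females; triangles, males) and the mean ± SD of 8 animals beside them. The 3 tallest points, of 5.76%, 5.43% and 5.34%, are 39102 on day 4 and 39102 and 39104 on day 8, and the highest library of days 17 and 21 had 1.5%.

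The values that chose the members are given as a description. After the first dose, the median member stood 0.45 higher on day 1 than on day 0 on the log2 scale, with a range over members of 0.20 to 1.69. After the second dose the median difference between day 4 and day 3 was 0.57 (range 0.20 to 1.42), and after the third dose the median difference between day 8 and day 7 was 1.13 (range 0.35 to 2.50). In means over the 8 animals, the difference grew with each dose in 97 of the 150 members. The third dose gave a larger mean difference than the first in 139. These counts do not describe single animals. Averaged over the members, the median animal stood at 0.47, 0.41 and 0.80 after the 3 doses, with no growth from the first to the second. On day 21 the median member lay 0.46 below day 0 (range -1.69 to 0.12). The last member taken had a mean of the 3 differences of 0.549 and the first gene left out one of 0.545. For the limit of 0.2, the nearest genes stood at 0.20004 and 0.19993, and for the day 21 limit at 0.147 and 0.161.

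Between doses the means were mostly lower again. On day 7 all 150 members were lower than on day 4, with a median difference of -0.87, and 43 of them were lower in all 8 animals. Of the 9939 kept genes, 48.4% were higher on day 7 than on day 4, and 3.57% were lower in all 8 animals. On day 3, 102 members were lower and 48 higher than on day 1, with a median difference of -0.16. On day 7, 90 members were above day 0 and 60 below it, with a median of 0.05. On day 8 the 150 members were all above day 0, 100 of them more than 2-fold, and 119 members had their highest mean of the 10 days there. Day 4 was the highest day for 20 members, day 14 for 7, day 10 for 3 and day 1 for 1. The lowest day was day 21 for 107 members and day 17 for 35. Days 3 to 8 all enter the rule, so these values carry no test.

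**Figure D2:**
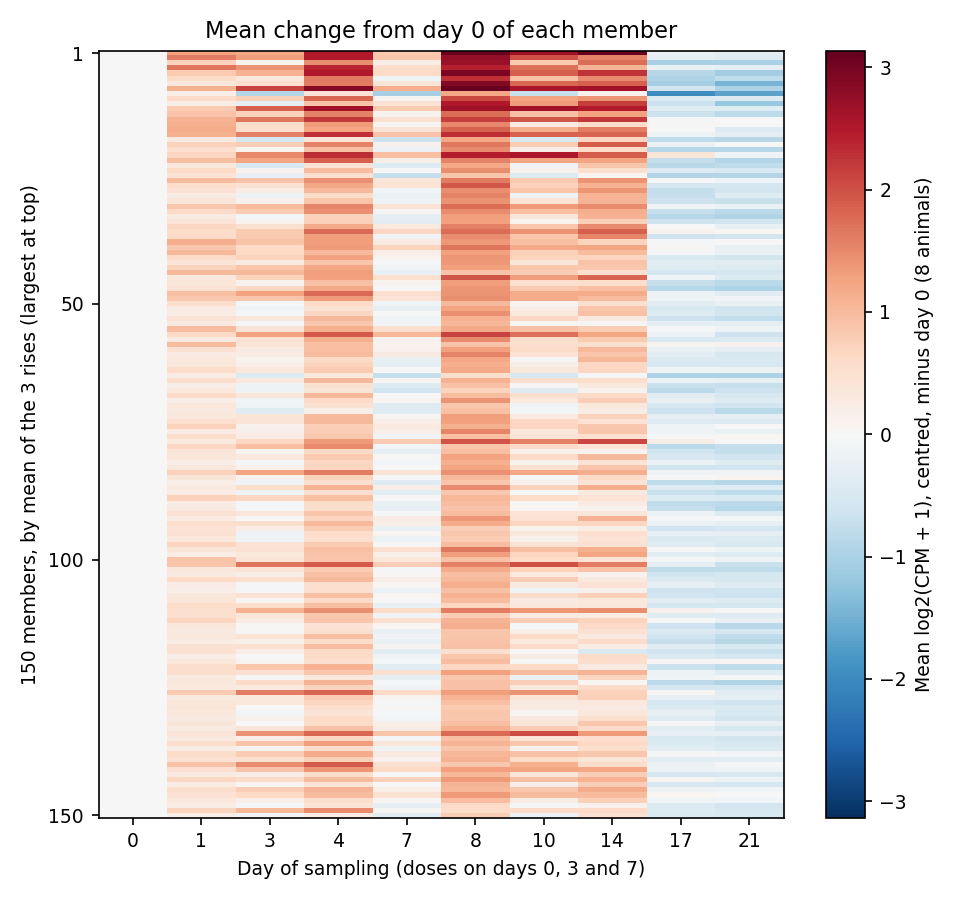
Mean difference from day 0 of each of the 150 members (rows, ordered by the mean of the 3 differences that chose them) on each day (columns), as log2(CPM + 1) centred on the library median and averaged over 8 animals. Day 1 is red in every row because the rule chose it so, and days 4 and 8 are red in every row as well; days 10 and 14 are red in most rows, and days 17 and 21 are pale or blue.

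The SD between animals was larger after the second and the third dose than after the first. Averaged over the 150 members, the difference between day 1 and day 0 was 0.52 ± 0.20 (SD, n = 8), with a lowest, median and highest animal of 0.31, 0.47 and 0.91. Every animal was above its own day 0, with between 112 and 150 members higher. The difference between day 4 and day 3 was 0.60 ± 0.84, with a lowest, median and highest animal of -0.07, 0.41 and 2.59. The highest value belonged to male 39102, where 148 of 150 members were higher on day 4, and without that animal the mean was 0.32. The lowest belonged to male 39104, where 60 members were higher and 90 lower. The other 6 animals stood between 0.16 and 0.65.

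After the third dose the mean difference between day 8 and day 7 was 1.21 ± 1.27, with a lowest, median and highest animal of -0.10, 0.80 and 3.42. Males 39104 and 39102 stood at 3.42 and 2.89, with all 150 members higher in both. Male 39103 stood at -0.10 and female 39097 at 0.10. In 39103 the members were 1.23 above day 0 on day 8, against 1.34 on day 7, where 146 of 150 were already above. The day 8 libraries of 39102, 39103 and 39104 are the 3 of that day that exceeded 40 M counts. Their member means lay at 2.85, 1.23 and 3.01 above day 0, while the other 5 animals lay between 0.19 and 1.01. All 3 came from males, whereas the remaining male, 39100, was the lowest animal at 0.19, in a library of 23.3 M counts. The part of depth in these values was not tested. In 39102 the members were 3.03 above day 0 on day 4, in a library of 25.6 M counts.

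Single members were less regular than their mean. Over the 3 intervals and 8 animals there were 24 occasions for each member, and the median member was higher on 20 of them (range 16 to 24). In all 8 animals, 58 members were higher on day 1, 13 on day 4 and 50 on day 8. The same held for 3.68%, 1.73% and 12.9% of the 9939 kept genes. These are the intervals that chose and ranked the members, so larger shares among members follow from the rule. A single member, picked out here after its values were seen, was higher on all 24. It ranked 84 and its mean level was 194 CPM on day 0. It averaged 252 CPM the day after the first dose and 217 CPM before the second, 316 CPM after the second and 194 CPM before the last, and 346 CPM after the last. Members of at least 100 CPM had median differences of 0.37, 0.52 and 1.17 after the 3 doses, and the 102 members below that level had 0.47, 0.59 and 1.10.

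Because the same animals chose the members, the rule was also applied to 7 animals at a time and its genes (at most 150) were measured in the animal left out. The mean difference in animals left out was 0.44 ± 0.23 after the first dose (SD, n = 8), positive in 8 of 8. It was 0.50 ± 0.63 after the second and 1.15 ± 1.24 after the third, positive in 7 of 8 animals each time. The share of genes that were higher in the animal left out ran from 65.1% to 98.7% after the first dose, from 43.3% to 96% after the second and from 45.3% to 100% after the third. These animals share the sampling days with those that chose the genes, and no p is given for such a score.

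**Figure D3:**
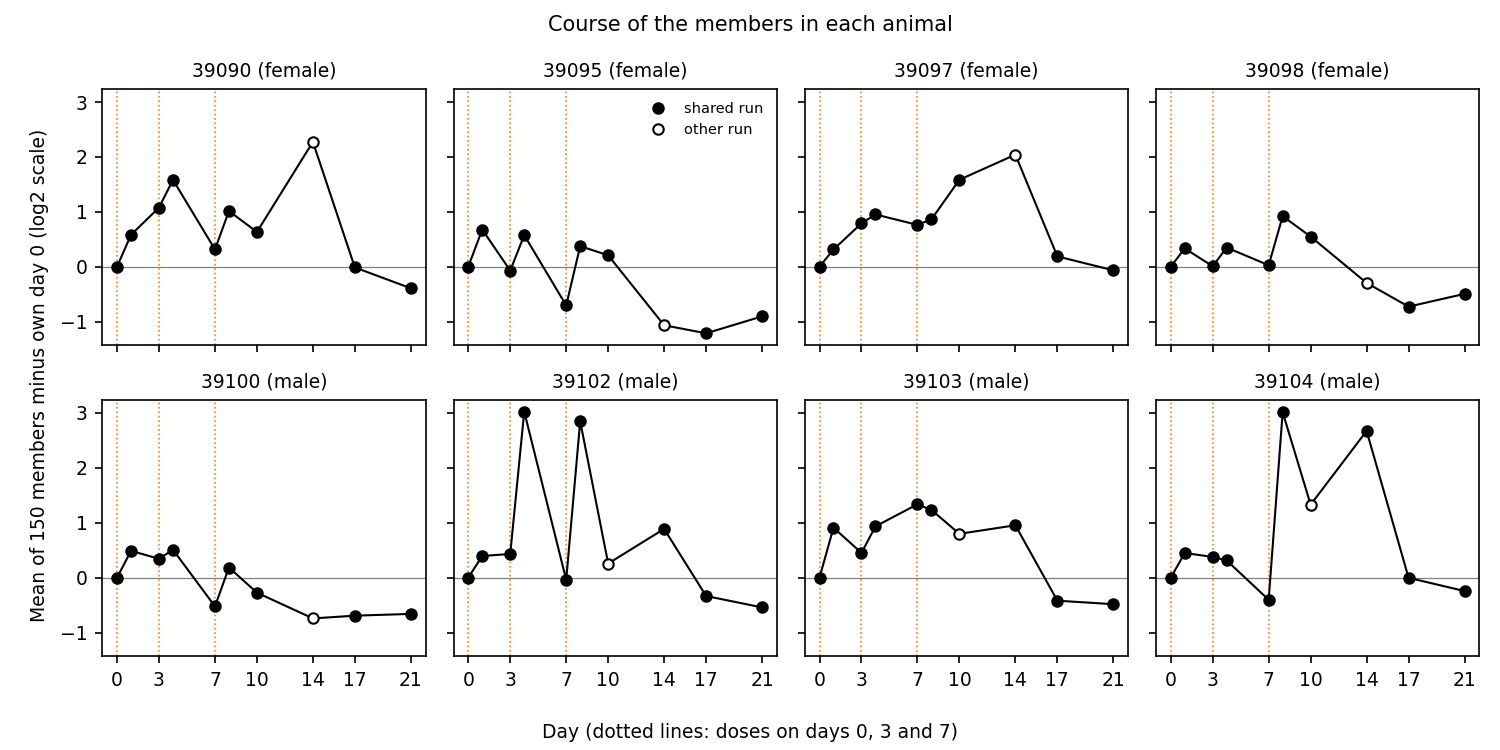
Mean of the 150 members minus the animal's own day 0 (vertical axis, log2 scale) by day, 1 panel per animal; dotted lines mark doses, filled points the shared sequencing run and open points the other run. Male 39102 peaks on days 4 and 8 (3.03 and 2.85) and male 39104 on days 8 and 14 (3.01 and 2.67), whereas 39095, 39098 and 39100 lie below 0 on day 14.

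The rule averaged over both sexes, and the difference between them was fitted for each 24 h interval. These are the intervals whose means over 8 animals chose and ranked the members, so the fitted differences are not independent of the rule. The 24 h change in females minus that in males was tested with edgeR's quasi-likelihood test and Benjamini-Hochberg adjustment over 16054 genes, with animal as a block and 4 animals of each sex. No member was called in any of the 3 intervals by edgeR, and DESeq2 also called 0 members in each. At an unadjusted edgeR p under 0.05 stood 20, 3 and 12 of the 150 members after the first, the second and the third dose. Of all 16054 genes tested, 1052, 301 and 731 stood there. Among all genes tested, edgeR called 1 gene (0.00623%) with a higher change in females after the first dose and 0 in each other case. Without a filter on low counts, the same fit called 12 members after the first dose. The change was higher in females for 5 of them (3.33% of 150, against 0.554% of the 29580 genes in that fit) and lower for 7 (4.67%, against 0.24%). Those 29580 genes include low-count genes that the filter removes, whereas all 150 members pass it. The shares thus compare genes of unlike levels. After the third dose, females averaged a member change of 0.69 and males 1.73, and the lowest adjusted p of a member was 0.74 by edgeR. The males' mean includes 39104 at 3.42, 39102 at 2.89 and 39103 at -0.10, and the first 2 of these also weigh most in the mean that ranked the members.

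Days 10, 14 and 17 entered the rule only through the limit on mean CPM, and contrasts among them were tested in 1 edgeR fit of their 24 libraries with animal as a block. That limit can favour low-level members with a high day 14. A member with a mean of 5.43 CPM over all libraries averaged 17.1 CPM on day 14. It was called lower on day 17 than on day 14 (edgeR adjusted p = 0.0169). On day 10, 3 days after the last dose, the mean of the members was 0.64 ± 0.61 above day 0, with 7 of 8 animals above and 132 of 150 members above in the mean. Day 14 stood at 0.84 ± 1.43, the widest spread of the 10 days, with 148 members above. Day 17 stood at -0.40 ± 0.46, with 7 of 8 animals below, and day 21 at -0.47 ± 0.25, with 8 of 8 below. These differences share the day 0 libraries with the rule and are given without a test.

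Day 14 split the animals. In 39104, 39090 and 39097 the members lay 2.67, 2.27 and 2.04 above the animal's own day 0, with 147, 150 and 149 of 150 members above it. In 39103 and 39102 they lay 0.95 and 0.89 above, with 137 and 131 members above. In 39098, 39100 and 39095 they lay at -0.30, -0.74 and -1.07, with 38, 17 and 7 members above. Within each animal, most members lay on the same side of its day 0. The other run tag covers all 4 females and male 39100 on day 14. Those 5 libraries ran from -1.07 to 2.27, and the 3 in the shared run from 0.89 to 2.67, so values above and below day 0 occur within the other run. The part of the run in the level of day 14 was not tested beyond the run term given below.

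Few members passed the test between day 14 and day 10. The fit called 1 member higher and 1 lower (0.667% of 150 each), where 4.07% of all 16054 genes tested were called higher and 4.75% lower. The median log2 fold change was 0.27, and 115 members had a positive and 35 a negative one. That median rested on single animals, with 0.06 without 39090, 0.07 without 39104, 0.45 without 39098 and 0.49 without 39095. The member called higher averaged 371 CPM on day 14 and 172 CPM on day 10 (log2 fold change 1.35, SE 0.41, edgeR adjusted p = 0.048). The member called lower averaged 56 CPM on day 14 and 91.6 CPM on day 10 (-0.48, SE 0.14, edgeR adjusted p = 0.0398). Both calls were lost on leaving out any 1 of animals 39090, 39098, 39100, 39102 and 39103, while 4 members were called higher without 39095 or 39097. Of all genes, 717 were called higher without 39095 and 779 without 39097. With the run tag as a term, 5 members were called higher and 1 lower, where 847 of all genes were called higher and 895 lower. Library totals in place of scaling factors moved the median of all genes to -0.24 and that of the members to 0.02, with 275 genes called higher and 2360 lower in place of 653 and 763; with DESeq2's size factors in edgeR the split was 831 higher and 602 lower.

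Most members fell between day 14 and day 17. All 150 had a negative fitted log2 fold change, with a median of -1.19 against 0.05 over all genes tested. The fit called 133 of the 150 members lower (88.7%) and 0 higher, where 15.9% of all genes were called lower and 15.3% higher. DESeq2 called 140 members lower and 0 higher, where 3125 of all genes were called lower and 2741 higher. The fitted log2 fold change was below -1 for 102 members, below -2 for 28 and below -3 for 8. The 17 members not called had a median log2 fold change of -0.76 and a median level of 18.5 CPM, against -1.30 and 58.4 CPM in those called. Among members of at least 100 CPM, 47 of 48 were called. The rule limited day 21, and day 21 differed from day 17 by a member mean of -0.07 ± 0.25. The low day 17 in this comparison is therefore not independent of the rule, and neither is the share of members called.

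By animal, the mean difference of the members between day 17 and day 14 was -1.24 ± 1.00 (SD, n = 8). It was -2.68 in 39104, -2.29 in 39090, -1.85 in 39097, -1.37 in 39103 and -1.22 in 39102. It was -0.43 in 39098 and -0.15 in 39095, and male 39100 stood at 0.05 with 95 members higher and 55 lower. The animals with the largest differences were those highest on day 14. The day 14 level is a term of that difference, and it varied more between animals (SD 1.43) than the day 17 level (SD 0.46). The order is thus largely set by the day 14 level. With the run tag as a term 133 members were called lower, where 2466 of all genes were called lower and 2158 higher. Within the shared run, where 3 males had both libraries, 72 were called lower and 149 of 150 had a negative fold change. Of all genes, 770 were called lower and 231 higher in that fit. Leaving out 1 animal at a time left 102 to 139 members called lower, and 1811 to 2619 of all genes. Library totals in place of scaling factors moved the median of all genes to 0.41, with 6426 genes called higher and 934 lower in place of 2453 and 2555; 100 members were then called lower, with a median of -0.80. Upper-quartile factors moved the median of all genes to 0.11 and left 132 members called lower, where 2242 of all genes were called lower.

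Against day 10, the members were lower on day 17 in every animal. The members' mean difference was -1.04 ± 0.41 (SD, n = 8), negative in 8 of 8 animals, with a lowest, median and highest animal of -1.42, -1.25 and -0.42. In all 8 animals, 97 of the 150 members were lower on day 17, as were 7.06% of the 9939 kept genes. The fit called 51 members lower (34%) and 0 higher, where 1.9% of all genes were called lower and 0.86% higher, and 148 of 150 fold changes were negative with a median of -1.01. Over all genes 138 were called higher and 305 lower, and with upper-quartile factors 201 and 257; 50 members were then called lower. DESeq2 called 90 members lower and 0 higher, where 729 of all genes were called lower and 660 higher. Calls by edgeR depended on single animals. The fit called 0 members lower without 39095 or 39102, 5 without 39103, 7 without 39098, 18 without 39104 and 25 without 39097. Calls over all genes dropped in the same fits, to 0, 1, 42, 51, 107 and 254 lower without 39095, 39102, 39103, 39098, 39104 and 39097. The members' median stayed between -0.91 and -1.06 in them. Without the animal block 0 members were called. Without the libraries over 40 M counts, which removes 4 of the 8 of day 10, 1 was called, with a median of -1.05. Over all genes, 3 and 21 were called lower in these last fits. The rule required a low day 21, and day 21 differed from day 17 by a member mean of -0.07 ± 0.25, so the low level of day 17 is not independent evidence of the late level.

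**Figure D4:**
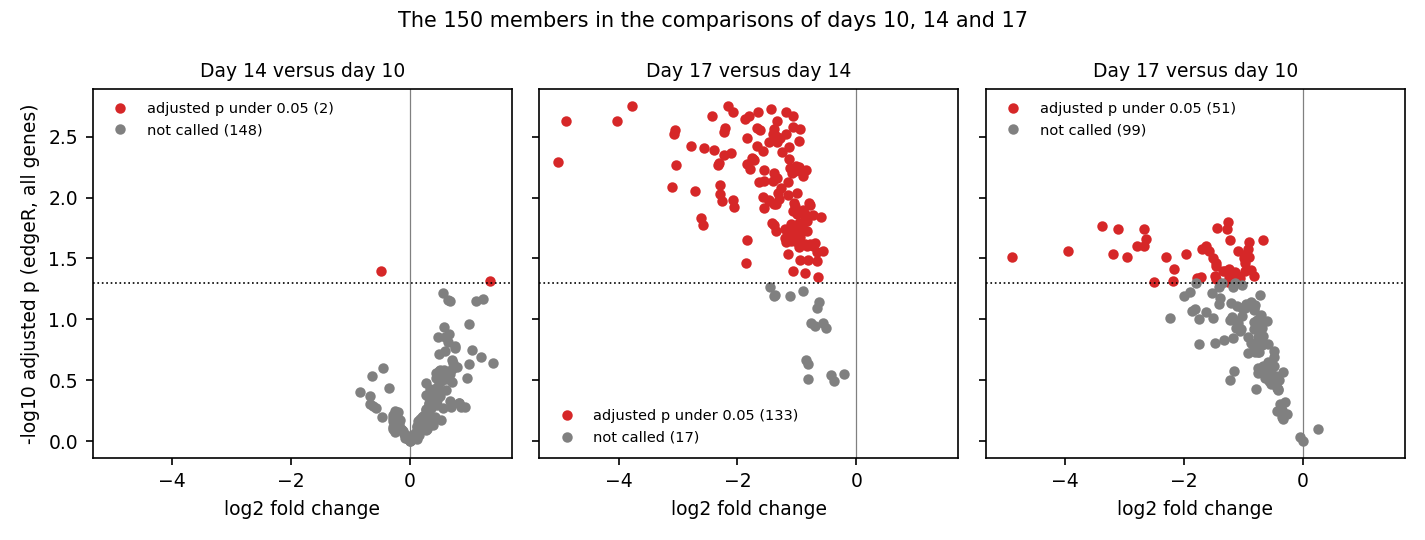
Fitted log2 fold change (horizontal axis) and -log10 of the edgeR adjusted p over all genes (vertical axis) of the 150 members in the 3 comparisons of days 10, 14 and 17; red points passed an adjusted p of 0.05 (dotted line). Between day 17 and day 14 all points lie left of 0 and 133 are red, between day 17 and day 10 51 are red, and between day 14 and day 10 the points lie on both sides.

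Members varied together within these late days. Over the 24 libraries of days 10, 14 and 17, with the means of each animal and each day taken out, the median correlation between pairs of members was 0.69, and 99% of the pairs were positive. Over all pairs of the 9939 kept genes the median was near 0, and 49.95% were positive. A first principal component held 66.8% of the members' standardised variance and 32.4% of that of all kept genes. All pairs share the same libraries and their scaling. That scaling centres each library on the median of the kept genes, and the members were chosen to move in the same direction. The contrast with all kept genes is thus partly set by the method, and the correlations are descriptions.

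ENSMFAG00000001064 was the member with the highest mean of the 3 differences (1.60). Its level on days 0, 1, 3, 4 and 7 had medians of 1.77, 6.71, 6.85, 12.6 and 4.14 CPM over 8 animals. On days 8, 10, 14, 17 and 21 the medians were 19.3, 30.3, 18.4, 1.96 and 1.62 CPM. It was higher on day 1 than on day 0 in 8 of 8 animals, on day 4 than on day 3 in 7 and on day 8 than on day 7 in 6. On day 17 the lowest, median and highest animal had 0.582, 1.96 and 4.75 CPM, against 1.29, 18.4 and 475 CPM on day 14. The groups overlapped, and 7 of 8 animals were lower on day 17. It fell by 4.88 on the log2 scale between day 14 and day 17 (SE 0.93, edgeR adjusted p = 0.00235).

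ENSMFAG00000020136 had the highest mean level of the members, 1305 CPM, and ranked 22. On day 0 its lowest, median and highest animal had 293, 454 and 2725 CPM, the last being female 39095, and the next animal had 795 CPM. Medians on days 1, 3, 4, 7 and 8 were 949, 1368, 2093, 578 and 1567 CPM. Its CPM was higher 24 h after the 3 doses in 7, 5 and 5 of 8 animals. On day 17 the lowest, median and highest animal had 184, 357 and 854 CPM, against 160, 1366 and 7408 CPM on day 14, and the groups overlapped. It fell by 2.30 on the log2 scale between day 14 and day 17 (SE 0.59, edgeR adjusted p = 0.00791), with 7 of 8 animals lower. Against day 10 it fell by 2.19 (SE 0.58, edgeR adjusted p = 0.0488) in 8 of 8 animals, a call that did not pass with library totals (adjusted p = 0.0503) or with DESeq2 size factors (adjusted p = 0.0506).

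ENSMFAG00000039278 and ENSMFAG00000063780 had the largest fitted decreases between day 14 and day 17 among the other members. Both are printed for that decrease, so its size and p are not independent of the choice. Their comparisons of day 17 with day 10 share the day 17 libraries with it. ENSMFAG00000039278 was a low-level gene with a mean of 9.14 CPM. Its CPM was higher 24 h after each dose in 5 of 8 animals. On day 17 it had 0.124, 0.603 and 1.04 CPM in the lowest, median and highest animal, against 1.08, 16.5 and 30.5 CPM on day 10, and those groups did not overlap. Its day 14 levels ran from 0.468 to 93 CPM with a median of 4.40 CPM. It fell by 5.01 against day 14 (SE 1.17, edgeR adjusted p = 0.00513) and fell by 4.90 against day 10 (SE 1.13, edgeR adjusted p = 0.0305). Within the shared run the first of these was -3.96 (edgeR adjusted p = 0.09) and missed the threshold.

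ENSMFAG00000063780 was higher in CPM 24 h after the 3 doses in 7, 8 and 6 of 8 animals. It had on day 17 a lowest, median and highest animal of 1.79, 4.07 and 7.91 CPM, against 8.09, 31.7 and 76.1 CPM on day 10, without overlap. On day 14 it ran from 2.34 to 276 CPM with a median of 40.6 CPM, and all 8 animals were lower on day 17. It fell by 4.02 against day 14 (SE 0.77, edgeR adjusted p = 0.00237) and fell by 3.19 against day 10 (SE 0.71, edgeR adjusted p = 0.029). None of these 4 members passed the edgeR test between day 14 and day 10, with adjusted p from 0.49 to 0.96. In all 4, the 3 highest libraries of day 14 were those of 39090, 39097 and 39104. For all 4, the calls between day 17 and day 10 were lost on leaving out any 1 of 39095, 39097, 39098, 39102, 39103 and 39104, and without the libraries over 40 M counts; that of ENSMFAG00000020136 was also lost without 39100.

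**Figure D5:**
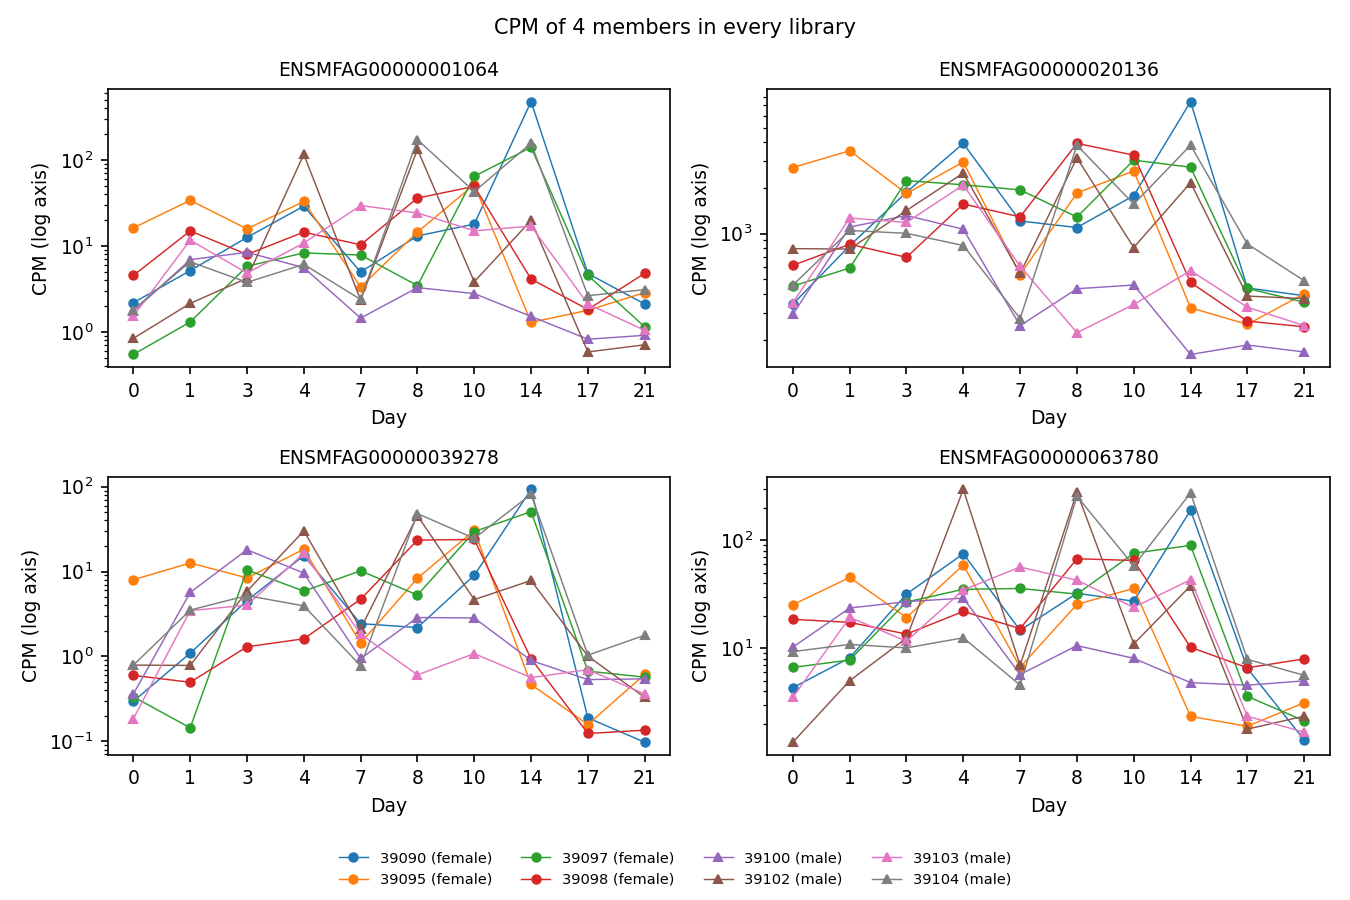
CPM (logarithmic vertical axis) of 4 members in every library by day, 1 line per animal (circles, females; triangles, males). ENSMFAG00000001064 runs from 0.582 to 4.75 CPM on day 17, against 1.29 to 475 CPM on day 14, and the other 3 members are likewise more spread on day 14 than on day 17.

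The day 21 level, which the rule limited from above only, varied among members. On day 21, 67 members lay more than 0.5 below day 0 and 83 between that and the limit. The 67 had a median level of 78.4 CPM and the 83 one of 32.9 CPM. Over the 67, the mean above day 0 was 0.43 ± 0.25 for day 1 and 0.92 ± 1.00 for day 4, then 1.24 ± 1.14 for day 8 and 0.71 ± 1.54 for day 14 (SD, n = 8). Over the 83 it was 0.59 ± 0.18 and 1.12 ± 0.83 for the first pair of days, and 1.36 ± 1.00 and 0.95 ± 1.35 for the other pair. On day 7 the 67 stood at -0.08 ± 0.78 and the 83 at 0.24 ± 0.62. No test is given because day 21 and day 0 chose the split.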

How the data were processed

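Whole-blood RNA (RNAdvance Blood kit, KAPA HyperPrep mRNA libraries, per the labels' protocols) of 8 animals on 10 days gave 80 libraries. The authors deposited raw read counts per gene in 2 tables of these libraries. How reads were aligned and counted, on which build and with what strandedness, is not given in the sources used here. No column of sample values was left unused (0). Per the labels, the same animal numbers recur on every day, which gives the pairing.

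Members were chosen by the rule stated above; members, gene lists and tests were chosen with earlier results of these data known. The 13 gene lists written for this work could not be used without gene names. Tests used edgeR 4.0.16 in R 4.3.3 (glmQLFit and glmQLFTest) on counts, after filterByExpr by day over 80 libraries (16054 genes, 41.6%; all 150 members passed), with TMM factors over all libraries, animal as a block and a Benjamini-Hochberg adjusted p under 0.05. SE is the absolute log2 fold change over the root of F. DESeq2 1.42.0 was an alternative. The script was tested on simulated data. The printed identifiers are the member with the highest mean difference, the one with the highest mean CPM and the 2 others with the most negative fold change on day 17 versus day 14. No self-made interval is given for counts. The p-values set the mean change within animals against the variation left after the fitted terms, with information shared across genes. Reads shared between near-identical or overlapping genes could not be traced.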

Additional observations from a re-analysis of the deposited data

Results flagged for a closer look

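Values of 1 animal that stood far from the other 7 were looked for in 59 groups of 8, by the gap to the nearest animal as a share of the whole range. A rate of about 1 in 20 holds by chance for independent groups of normally distributed values, and 16 were found. Most of the 16 are untransformed CPM of the printed members, and the groups share libraries. The 16 therefore cannot be set against that rate. Averaged over the 150 members, male 39102 was far above the rest on day 4, both against its own day 0 (3.03, next animal 1.58) and against day 3 (2.59, next animal 0.65). The same library was high for ENSMFAG00000001064 (116 CPM, next 32.9 CPM) and ENSMFAG00000063780 (298 CPM, next 75.3 CPM).

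Female 39095 stood out before any dose. On day 0 it had 16.1 CPM of ENSMFAG00000001064 (next animal 4.52 CPM), 2725 CPM of ENSMFAG00000020136 (next 795 CPM) and 8.03 CPM of ENSMFAG00000039278 (next 0.791 CPM). On day 1 it had 33.8, 3516 and 12.6 CPM of these and 45.4 CPM of ENSMFAG00000063780. On day 7, ENSMFAG00000001064 was high in 39103 (29.4 CPM, next 10.3 CPM) and ENSMFAG00000039278 in 39097 (10.2 CPM, next 4.72 CPM). On day 14, 39090 had 475 CPM of ENSMFAG00000001064 (next 156 CPM). Male 39104 had 854 CPM of ENSMFAG00000020136 on day 17 (next 438 CPM) and 1.78 CPM of ENSMFAG00000039278 on day 21 (next 0.616 CPM).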

How the results depend on the processing

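Counts of members called lower between day 14 and day 17 stayed at 95 to 140 under every alternative but 1, the fit within the shared run (72). Of all genes, 1735 were called lower in the fit with 95, 3125 in that with 140 and 770 within the shared run. Without the animal block, that is without the pairing of libraries of the same animal, 126 members were called lower between day 14 and day 17. That fit called 0 members lower between day 10 and day 17 and 0 in either direction between days 10 and 14. Of all genes it called 1749 lower between day 14 and day 17 and 3 lower between day 10 and day 17. Between days 10 and 14 it called 140 genes higher and 199 lower. Between day 10 and day 17 other fits called 90 (DESeq2), 111 (each pair of days fitted on its own) and 1 (without libraries over 40 M counts) in place of 51. Of all genes, these fits called 729, 1169 and 21 lower in place of 305. Between day 10 and day 14, members called higher were 5 by DESeq2 and with the run term and 0 without large libraries or with pairs of days on their own. Of all genes, 1478, 847, 2 and 143 were called higher in these fits, in that order. Members called lower between those days were 2 with library totals and 0 with DESeq2 size factors, without the low-count filter, without large libraries and with pairs of days on their own. Of all genes, 2360, 602, 455, 1 and 159 were called lower in those fits, in that order. Leaving out 1 animal gave 0 to 4 higher and 0 to 1 lower between days 10 and 14, 102 to 139 lower between days 14 and 17, 0 to 52 lower between days 10 and 17, and no sex difference. Of all genes, these fits called 141 to 779 higher and 192 to 908 lower between days 10 and 14. They called 1811 to 2619 genes lower between days 14 and 17 and 0 to 288 lower between days 10 and 17. The sex difference after the first dose had 12 members without the low-count filter, where 235 of 29580 genes were called. The cause was not tested. The rule was met by 329 genes, by 173 with library totals, by 330 in the second table and by 232 to 371 with 1 animal left out; of the 150 members, 113 met it without 39102. The signs of 2 differences between day 14 and day 10, neither called, turned: ENSMFAG00000020136 to -0.17 with library totals and ENSMFAG00000039278 to -0.18 with library totals, -0.097 with pairs of days on their own and -0.0037 by DESeq2. With 1 animal left out they ran from -0.39 to 0.57 and from -0.70 to 0.81. Mean differences of the members moved by less than 1 SD under every scaling and pseudocount tried.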
